A study of Mus musculus with 4 samples.

Results

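Proteins enter the secretory route of the hepatocyte at the endoplasmic reticulum (ER) and leave it in coated vesicles, and 68 genes of that machinery, selected by their names on the array, were followed here in fasted against refed mouse liver. The selection took genes with symbols of the signal recognition particle, its receptor, the Sec61 channel, the translocon-associated protein complex or signal peptidase. It also took symbols of the COPII or COPI coats, the p24 proteins, the lectin cargo receptors, the KDEL receptors or the Sec22 family. Subunits under other names, such as Arcn1 of the COPI coat, were not included. The 68 genes were represented by 98 probes among 31896 named genes on the array, and 60 of them had a probe that could be measured, among 16105 measured genes in all. Selection by name also took in Sec1, a fucosyltransferase gene, and Copg2as2, an antisense transcript, but neither was measurable. The other 6 genes without a measurable probe were Kdelr3, Sec22a, Sec31b, Srp54b, Tmed6 and Tmed11, whose probes were well above background in 0 of 4 fasted livers and in at most 1 refed liver.

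The samples were livers of male C57BL/6J mice (strain C57/Bl6 in the labels) aged 8-12 weeks, and the labels give no other treatment for either group. Fasted mice had been without food for 24 h (n = 4), and refed mice had been fasted for the same 24 h and then had access to food for 2 h (n = 4), so that the control group had also been fasted. Each of 4 two-colour arrays, called replicates here, held RNA of 1 fasted and 1 refed liver paired at random, with the fasted liver in the Cy5 dye on replicates 1 and 2 and in Cy3 on replicates 3 and 4. Levels are compared as the log2 ratio of fasted to refed liver on an array, which is negative where the fasted liver is lower. In tissue RNA, fewer cells of a type and less RNA per cell cannot be told apart.

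A nascent secretory protein is recognised by its signal sequence, delivered by the signal recognition particle (SRP) to its receptor in the ER membrane, and threaded through the Sec61 channel, where signal peptidase removes the signal sequence. Folded cargo is then packed into vesicles with a COPII coat that travel towards the Golgi, while COPI vesicles bring escaped ER residents and recycling receptors back. Hepatocytes make most plasma proteins, among them albumin, apolipoproteins and clotting factors, and so depend heavily on this route.

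All 7 hepatocyte marker genes checked, among them Alb and Apob, were well above background in both groups. Replicate 3 stood apart in markers of pancreatic acinar cells, which are themselves rich in secretory machinery. The summed normalised intensity of the 4 measurable acinar markers (Cel, Clps, Ctrb1 and Sycn) was 22160 in refed liver 3, against 501 to 615 in the other refed livers and 525 to 1112 in the fasted livers. Over those 4 genes the median log2 ratio was -4.42 on replicate 3 and -0.07 to 0.01 on the other arrays, while 13 of the 17 acinar markers on the array had no measurable probe, and the part of these cells in the results was not tested. The main counts are therefore also given without replicate 3. Red blood cell markers (3 genes) split the arrays another way, with a median log2 ratio of 2.35 and 2.37 on replicates 1 and 3 and of -0.27 and 0.23 on replicates 2 and 4. Their summed intensity was 75590, 28970, 121400 and 25670 in fasted livers 1 to 4 and 15220 to 34830 in the refed livers. The 4 Kupffer cell markers followed the same split at 0.46 and 0.52 against -0.24 and -0.26. Of the 25 measurable marker genes of all lists 1 was called, the hepatocyte gene Tat, an enzyme of tyrosine breakdown, which was higher in fasted liver at 0.84 (adjusted p = 0.045 in limma), but not called without replicate 3 (0.91, adjusted p = 0.122 in limma). The endothelial marker Stab2 was higher in all fasted livers than in all refed livers, at 0.35 (adjusted p = 0.048 in limma, and 0.150 without replicate 3). The other measurable endothelial and stellate markers, Pecam1 and Col1a1, read 0.11 and -0.02 (adjusted p = 0.44 and 0.96 in limma). The only measurable cholangiocyte marker of 3, Krt19, read -1.19 on replicate 3, where the acinar ratio was also lowest, and -0.17 to -0.11 on the other arrays. The only measurable plasma cell or B cell marker of 5, Cd79b, had a positive mean of 0.49.

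Most genes of the secretory machinery had a negative mean ratio, that is, a lower level in the fasted livers. The mean log2 ratio was negative for 48 of the 60 measured genes (80%) and for 49.3% of all measured genes. The median over the 60 genes was -0.23, against 0.003 over all genes, and 32 of the 60 (53.3%) lay at or below -0.2, as did 14.6% of all genes. On the single arrays the median was -0.11, -0.23, -0.24 and -0.30 for replicates 1 to 4, and it was -0.22 without replicate 3. It was -0.20 over replicates 1 and 3 alone and -0.27 over replicates 2 and 4 alone, the split shown by the red blood cell markers. Members were negative in 43, 47, 49 and 44 cases on replicates 1 to 4. Across the 60 genes the ratios correlated with r = 0.732 between replicates 1 and 2 and r = 0.954 between replicates 3 and 4, which share a dye orientation, and with r = 0.213 to 0.612 between arrays of opposite orientation. Over all measured probes the same pairs of arrays gave r = 0.664 and 0.752, against 0.223 to 0.396 between arrays of opposite orientation. All of these are correlations across genes or probes, which are not independent replicates.

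**Figure D1:**
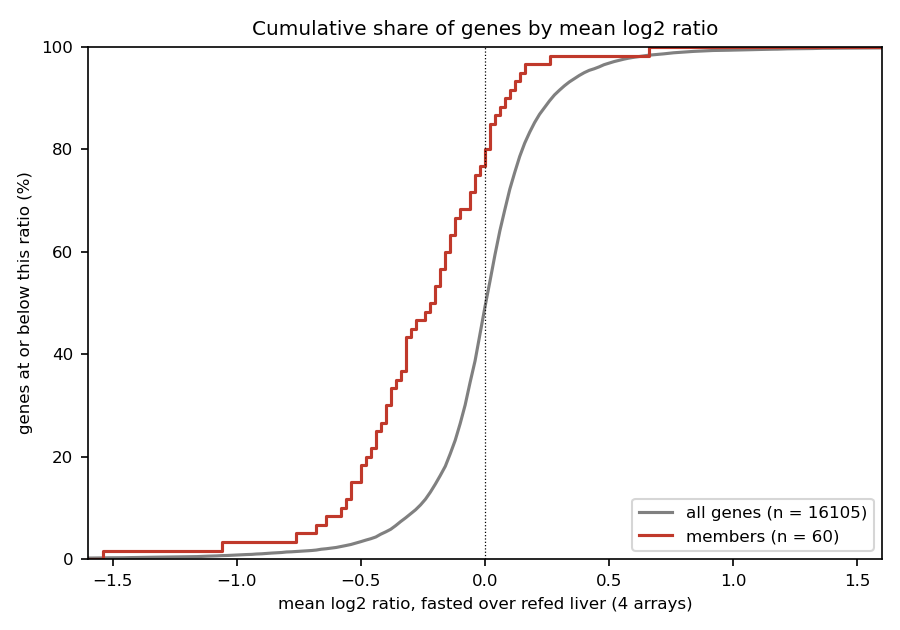
Cumulative share of genes (vertical axis, percent) at or below each mean log2 ratio of fasted over refed liver (horizontal axis, mean of 4 arrays), for the 60 measured members in red and all 16105 measured genes in grey. At a ratio of 0 the red curve stands at 80% and the grey curve at 49.3%.

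A gene was called where the adjusted p in limma was under 0.10 and the change was at least 1.5-fold, as measured by its brightest probe. By this rule 6 members were called lower in fasted liver (Tmed3, Sec23b, Srprb, Tmed9, Sec61g and Ssr2), when 2.14% of all genes were called lower, and 1 member (Tmed5) was called higher, when 1.82% of all genes were called higher. At the same adjusted p with no limit on the fold, 19 members were lower and 1 was higher, where the share over all genes was 6.28% lower and 4.95% higher. At an unadjusted p under 0.05, 30 members were lower and 1 was higher, against 11.7% and 10.3% of all genes. The count of 19 at the adjusted p changed with the arrays used. Without replicate 3 only 4 members passed the adjusted p, which were Tmed3, Sec23b, Ssr2 and Lman1, all lower, against 1.61% of all genes lower and 1.32% higher. Without replicate 2 there were 8 lower (2.41% of all genes) and without replicate 4 there were 9 (2.55%), but without replicate 1 there were 20 (5.62%). The unadjusted count without replicate 3 was 23 lower and 1 higher, against 8.43% and 7.71% of all genes. In 24 members all 4 fasted livers lay below all 4 refed livers, an ordering seen in 7.77% of all genes, while the opposite ordering was seen in 0 members and in 6.03% of all genes. Over the livers of replicates 1, 2 and 4 these orderings were seen in 26 and 1 members and in 9.92% and 8.46% of all genes. Without replicate 3 the called members were Tmed3, Sec23b and Ssr2, all lower, when 1.32% of all genes were called lower and 1.14% higher. The 4 members that lost their calls there stayed past the fold (Srprb -0.78, Sec61g -0.69, Tmed9 -0.69 and Tmed5 0.60) and had adjusted p from 0.104 to 0.117 in limma. Leaving out replicate 2 also reduced the lower calls to 3, which were Tmed3, Sec23b and Tmed9 (1.52% of all genes), whereas leaving out replicate 1 raised them to 9 (2.68% of all genes). When 55 spots with extreme local backgrounds stayed in the background fit, limma called 0 members either way and 15 of all genes lower. At an unadjusted p under 0.05 that fit had 22 members lower and 1 higher, against 3.30% and 2.72% of all genes. When arrays were centred on their median in place of loess, 14 members were called lower and 0 higher, against 3.35% and 1.24% of all genes, whose own median then stood at -0.06. With the authors' deposited log2 ratios the counts were again 6 and 1, with Sec61b in the place of Ssr2, when 2.71% of all genes were called lower and 2.31% higher.

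**Figure D2:**
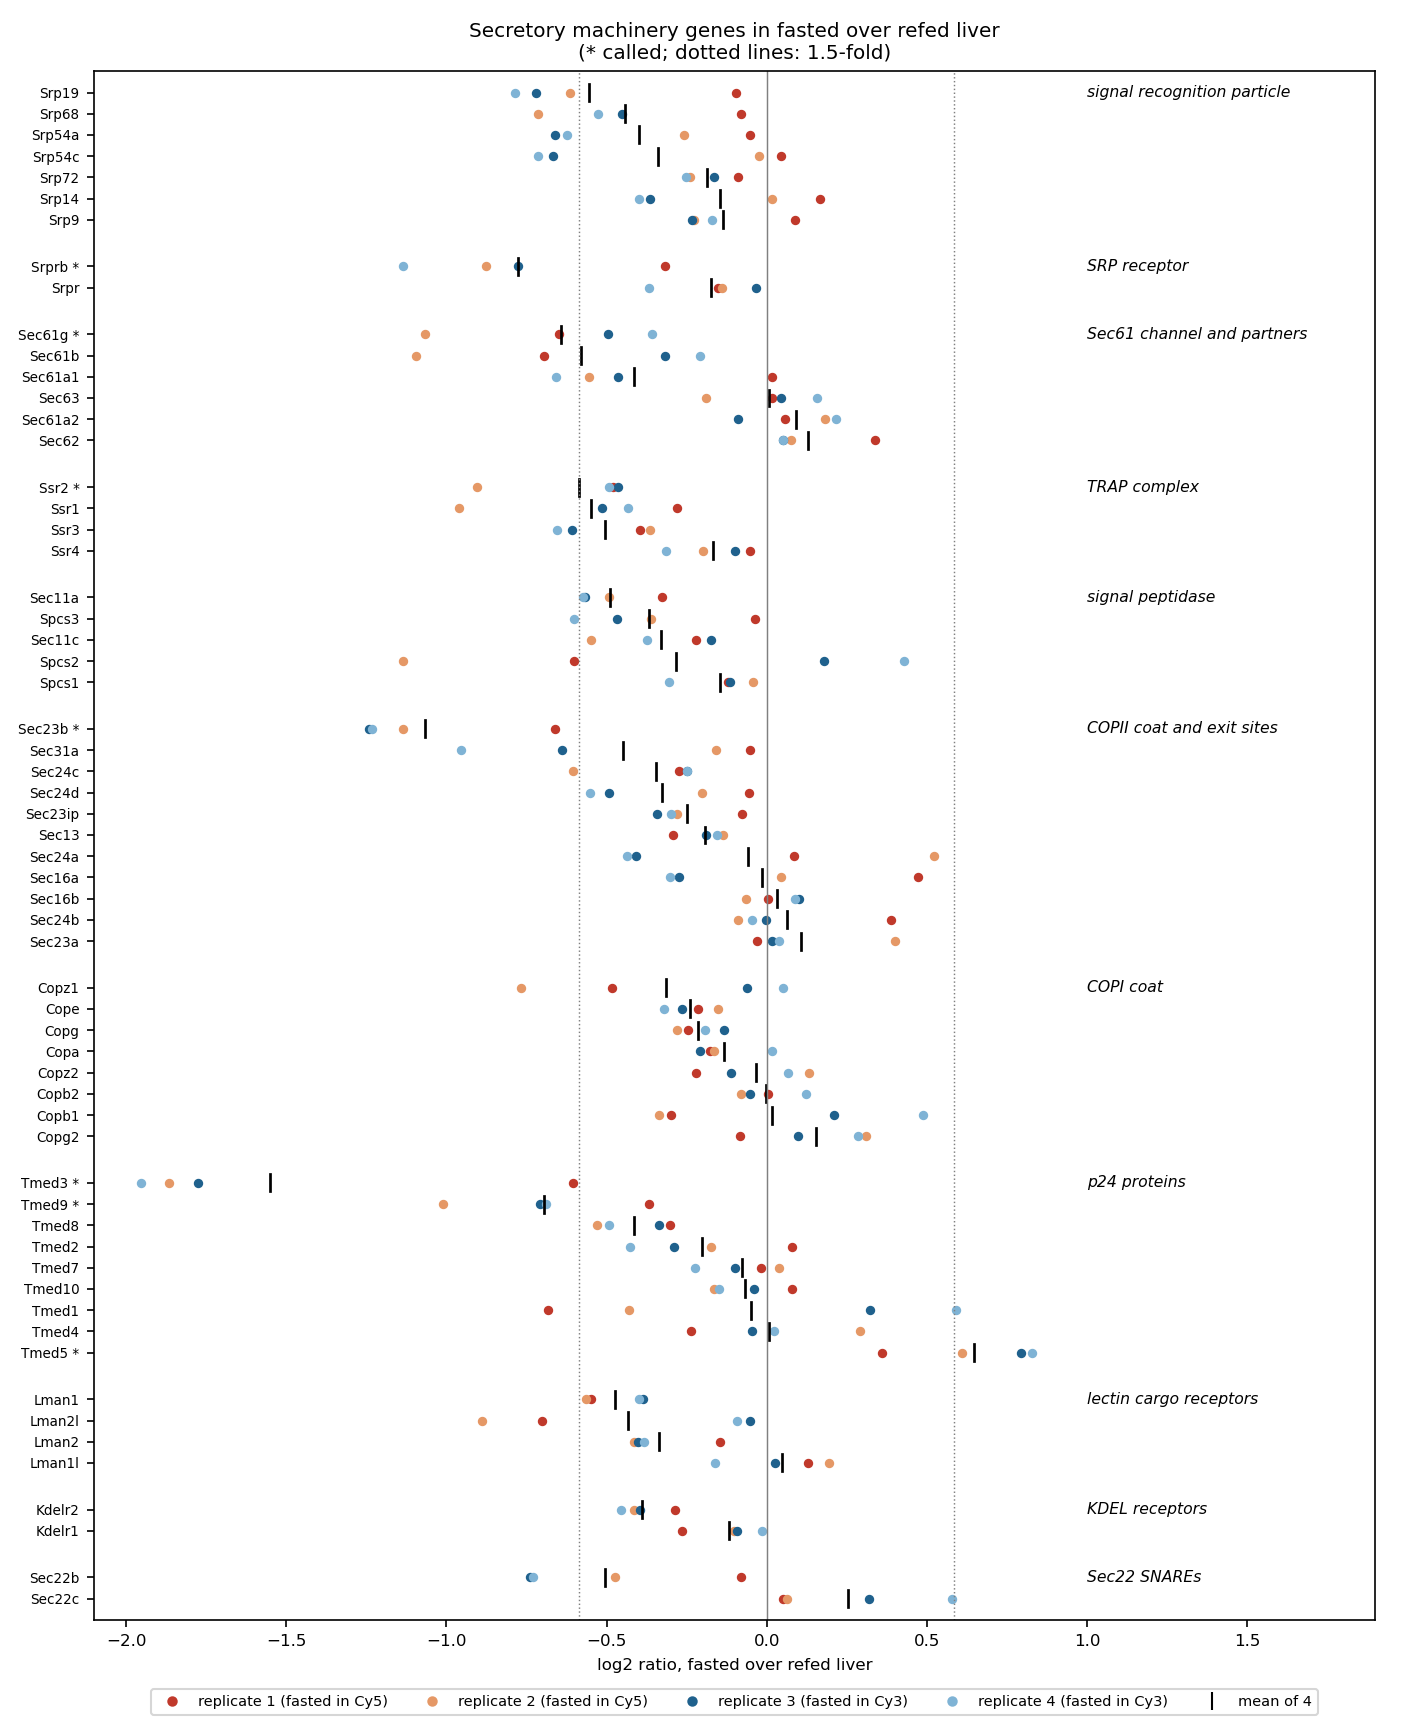
Log2 ratio of fasted over refed liver (horizontal axis) for each of the 60 measured members, grouped by role, with 1 point per replicate coloured by array and a bar at the mean of 4. Dotted lines mark 1.5-fold, and asterisks mark the 7 called genes. All measured genes of the signal recognition particle, its receptor, the translocon-associated protein complex and signal peptidase have means below 0, while the 8 genes of the COPI coat have a median of -0.08.

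At the first step, all 7 measured SRP subunits had negative means, from -0.55 to -0.14, with a median of -0.34. Of these, 0 were called by limma or by SAM, the test the study used, and 4 had an unadjusted p under 0.05 (11.7% of all genes lower). Srp19, which helps assemble the particle, and Srp68, part of its body, passed the adjusted p but not the fold, at -0.55 ± 0.31 (SD, n = 4 arrays, adjusted p = 0.061 in limma) and -0.44 ± 0.27 (adjusted p = 0.078 in limma). The signal-binding GTPase is encoded in the mouse by near-identical copies whose probes may share signal. Srp54a read -0.40 and Srp54c -0.34, neither past the adjusted p, and Srp54b was not measurable. Srp54c was a case where the dye orientations differed, at 0.01 over replicates 1 and 2 and -0.69 over replicates 3 and 4. Srp9, Srp14 and Srp72 lay between -0.19 and -0.14.

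The SRP receptor has a cytosolic GTPase subunit, encoded by Srpr, and a membrane anchor, encoded by Srprb. The Srprb probe at chr9:103092235-103092294 (mm9, as are all probe positions here) had normalised intensities of 125, 115, 117 and 108 in fasted livers 1 to 4 and of 155, 211, 200 and 237 in refed livers 1 to 4. The highest fasted liver lay below the lowest refed liver, which belonged to replicate 1. Srprb was 1.71-fold higher in refed liver, a mean log2 ratio of -0.78 ± 0.34 (SD, n = 4, adjusted p = 0.030 in limma). A dimmer Srprb probe was not well above background in any fasted liver and was in all 4 refed livers, and the call was lost when the mean of both probes was taken (-0.58) and without replicate 2 or 3 (adjusted p = 0.113 and 0.116 in limma). The ratio of the brighter Srprb probe, itself dim, depended on the background step, from -0.31 with the background fitted on all spots, where it was not called, to -1.19 with plain subtraction or Agilent's processed signals. Srpr read -0.17 and was not called.

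Of 6 genes of the Sec61 channel and its partners, 1 was called lower (2.14% of all genes) and 3 had negative means (49.3% of all genes). Sec61g, the gamma subunit that clamps the channel, had normalised intensities of 4568, 4752, 6719 and 6773 in fasted livers and of 7157, 9947, 9481 and 8690 in refed livers 1 to 4 (chr11:16401737-16401796). All fasted livers lay below all refed livers, and the fasted livers of replicates 1 and 2 were lower than those of replicates 3 and 4. The difference was 1.56-fold, a mean log2 ratio of -0.64 ± 0.31 (SD, n = 4, adjusted p = 0.039 in limma), and the call was lost without replicate 2 or without replicate 3. Sec61b, the beta subunit, read -0.58, just short of the fold, with an adjusted p of 0.085 in limma and a dimmer probe at -0.37. Its ratios were larger with fasted liver in Cy5 (-0.90 over replicates 1 and 2) than in Cy3 (-0.26 over replicates 3 and 4). Sec61a1, the pore subunit, read -0.42 with 1 array above 0, and its paralog Sec61a2 read 0.09. Sec62 and Sec63, which serve transport after translation, read 0.13 and 0.01, and their dimmer probes -0.14 and -0.13.

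The translocon-associated protein complex, formerly called the signal sequence receptor, sits beside the channel and aids the entry of some signal sequences. Its 4 subunits had a median of -0.53, and 3 of them were lower at the adjusted p (6.28% of all genes), of which only Ssr2 did so without replicate 3. For Ssr2 (chr3:88387719-88387778) the fasted livers read 1604, 1597, 1725 and 1570 and the refed livers 2235, 2991, 2381 and 2208. The fasted livers lay within a narrow band below all refed livers, of which the liver of replicate 2 was the highest. The mean was -0.59 ± 0.21 (SD, n = 4, adjusted p = 0.028 in limma), which is 1.5-fold and so at the limit itself, and the call was lost without replicate 2 (-0.48) and with the authors' deposited log2 ratios (-0.58). Ssr1 lay just outside the limit at -0.55 (adjusted p = 0.055 in limma). Its 2 dimmer probes differed from each other, since the probe at chr13:38067906-38067965 was called at -0.76 and the probe at chr13:38063472-38063531 read -0.15. Ssr3 read -0.51 (adjusted p = 0.026 in limma) and Ssr4 -0.17.

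By their brightest probes, all 5 subunits of signal peptidase had negative means with a median of -0.33, with 0 called by limma or SAM and 3 lower at an unadjusted p under 0.05 (11.7% of all genes). Sec11a, a catalytic subunit, read -0.49 ± 0.11 (SD, n = 4, adjusted p = 0.023 in limma), and its second probe read -0.50. The other catalytic subunit, Sec11c, read -0.33 (adjusted p = 0.088 in limma), Spcs3 -0.37 (a dimmer probe at -0.44 passed the adjusted p) and Spcs1 -0.15. Spcs2 changed sign with the dye orientation, at -0.87 over replicates 1 and 2 and 0.30 over replicates 3 and 4. A dimmer Spcs2 probe turned the opposite way, with a mean of 0.07, positive on replicates 1 and 2 and negative on replicates 3 and 4. Over the whole machinery a dye effect, a difference between the dyes that does not turn with the swap, passed an adjusted p of 0.10 in limma for 11 of 60 members, against 15.4% of all genes.

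Taking the entry steps as a whole, 21 of 24 genes were negative with a median of -0.35, and 3 were called lower (2.14% of all genes). The 36 genes of the vesicle steps had 27 negative means and a median of -0.16, with 3 called lower and 1 higher (1.82% of all genes higher). The entry genes had a median of -0.09 on replicate 1 and of -0.36 to -0.41 on the other arrays, whereas the vesicle genes lay between -0.18 and -0.16 on every array. Without replicate 3 the medians were -0.36 with 1 gene called lower and -0.17 with 2 called lower and 0 higher, when 1.32% and 1.14% of all genes were called. The difference between these groups was not tested.

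Of the 11 measured COPII genes 1 was called lower (2.14% of all genes), and 6 were lower at an unadjusted p under 0.05 (11.7% of all genes). Sec23b, which with Sec24 forms the inner layer and switches off the GTPase Sar1, had normalised intensities of 1200, 1523, 1389 and 1370 in fasted livers 1 to 4 (chr2:144416111-144416170). In refed livers 1 to 4 they were 1899, 3347, 3285 and 3217. Every fasted liver lay below every refed liver, and refed liver 1 stood well below the other refed livers. The level was 2.10-fold higher in refed liver, a mean log2 ratio of -1.07 ± 0.27 (SD, n = 4, adjusted p = 0.0099 in limma), and it was called whichever replicate was left out. Its paralog Sec23a, which can replace it in the coat, had fasted values of 485, 504, 466 and 464 and refed values of 495, 382, 461 and 452. These overlapped, and Sec23a read 0.11 ± 0.20 (SD, n = 4, adjusted p = 0.60 in limma).

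Among the Sec24 cargo adaptors, Sec24c read -0.35 (adjusted p = 0.081 in limma) and Sec24d -0.33 (adjusted p = 0.14 in limma), while Sec24a and Sec24b read -0.06 and 0.06. The probes of Sec24a differed, since a dimmer one read -0.32 and passed the adjusted p (0.083 in limma) and the dimmest -0.03. The outer coat gene Sec31a read -0.45, with -0.10 over replicates 1 and 2 and -0.80 over replicates 3 and 4, and was not called, although a dimmer probe at -0.31 passed the adjusted p (0.075 in limma). Sec13, its partner in the outer cage, read -0.19 and Sec23ip, which binds Sec23, -0.25. The exit site scaffolds Sec16a and Sec16b read -0.01 and 0.03.

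In the COPI coat, 0 of 8 measured genes were called or passed the adjusted p in limma, 0 were called by SAM, 2 were lower at an unadjusted p under 0.05 (11.7% of all genes), and their median was -0.08. Copz1, a zeta subunit, had the largest mean at -0.32, with -0.62 over replicates 1 and 2 and -0.01 over replicates 3 and 4. Cope and Copg, the latter now named Copg1, were negative on all 4 arrays at -0.24 and -0.21, with each fasted liver below each refed liver. Copb1 and Copb2 read 0.02 and 0.00, and Copg2 read 0.15. Arcn1, the delta subunit, lay outside the selection by name and read -0.24, with a dimmer probe at -0.13, neither called.

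The p24 proteins, membrane proteins of early secretory vesicles that bind coat and cargo, held the largest change in either direction. For Tmed3 the fasted livers read 1916, 2003, 2049 and 1884 (chr9:89594051-89594110). The refed livers of replicates 1 to 4 read 2911, 7305, 7008 and 7305. The fasted livers were nearly equal, and the refed liver of replicate 1 lay far below the other refed livers but above all fasted livers. Tmed3 was 2.93-fold higher in refed liver, a mean log2 ratio of -1.55 ± 0.64 (SD, n = 4, adjusted p = 0.020 in limma), and it was called whichever replicate was left out.

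Tmed9 read 5980, 5793, 6284 and 6035 in fasted livers and 7720, 11674, 10266 and 9735 in refed livers (chr13:55698948-55699007). Here too the fasted livers were close together, and refed liver 1 was the lowest of the refed livers without overlap. The difference was 1.62-fold, a mean log2 ratio of -0.69 ± 0.26 (SD, n = 4, adjusted p = 0.025 in limma), and a second probe at chr13:55694637-55694696 was also called, at -0.68. Without replicate 3 its mean was the same to 2 decimals, -0.69, but the adjusted p rose to 0.107 in limma.

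Tmed5 ran the other way. It read 1424, 1228, 1058 and 1115 in fasted livers and 1110, 804, 610 and 628 in refed livers (chr5:108550958-108551017). The fasted liver was the higher one on each array, although refed liver 1 exceeded fasted liver 3. Tmed5 was 1.57-fold higher in fasted liver, a mean log2 ratio of 0.65 ± 0.21 (SD, n = 4, adjusted p = 0.021 in limma), and its second probe was called at 0.68 (chr5:108552106-108552165). It was not called without replicate 3 (0.60, adjusted p = 0.104 in limma) or when arrays were centred on their median in place of loess (0.53) or the background was fitted on all spots (0.31), and it kept its sign in all 21 alternatives. Of the other genes grouped here with the p24 proteins by their Tmed names, Tmed8 read -0.42 (adjusted p = 0.035 in limma). It was past the p but not the fold. This dim probe ranged from -0.21 with the background fitted on all spots to -0.69 with plain subtraction and -0.79 with Agilent's processed signals. Tmed8 was called with plain subtraction and with Agilent's processed signals. Tmed2, Tmed7, Tmed10, Tmed1 and Tmed4 had means from -0.20 to 0.01, where Tmed7 was well above background in 2 of 4 fasted livers, and Tmed1 changed sign with the dye orientation.

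**Figure D3:**
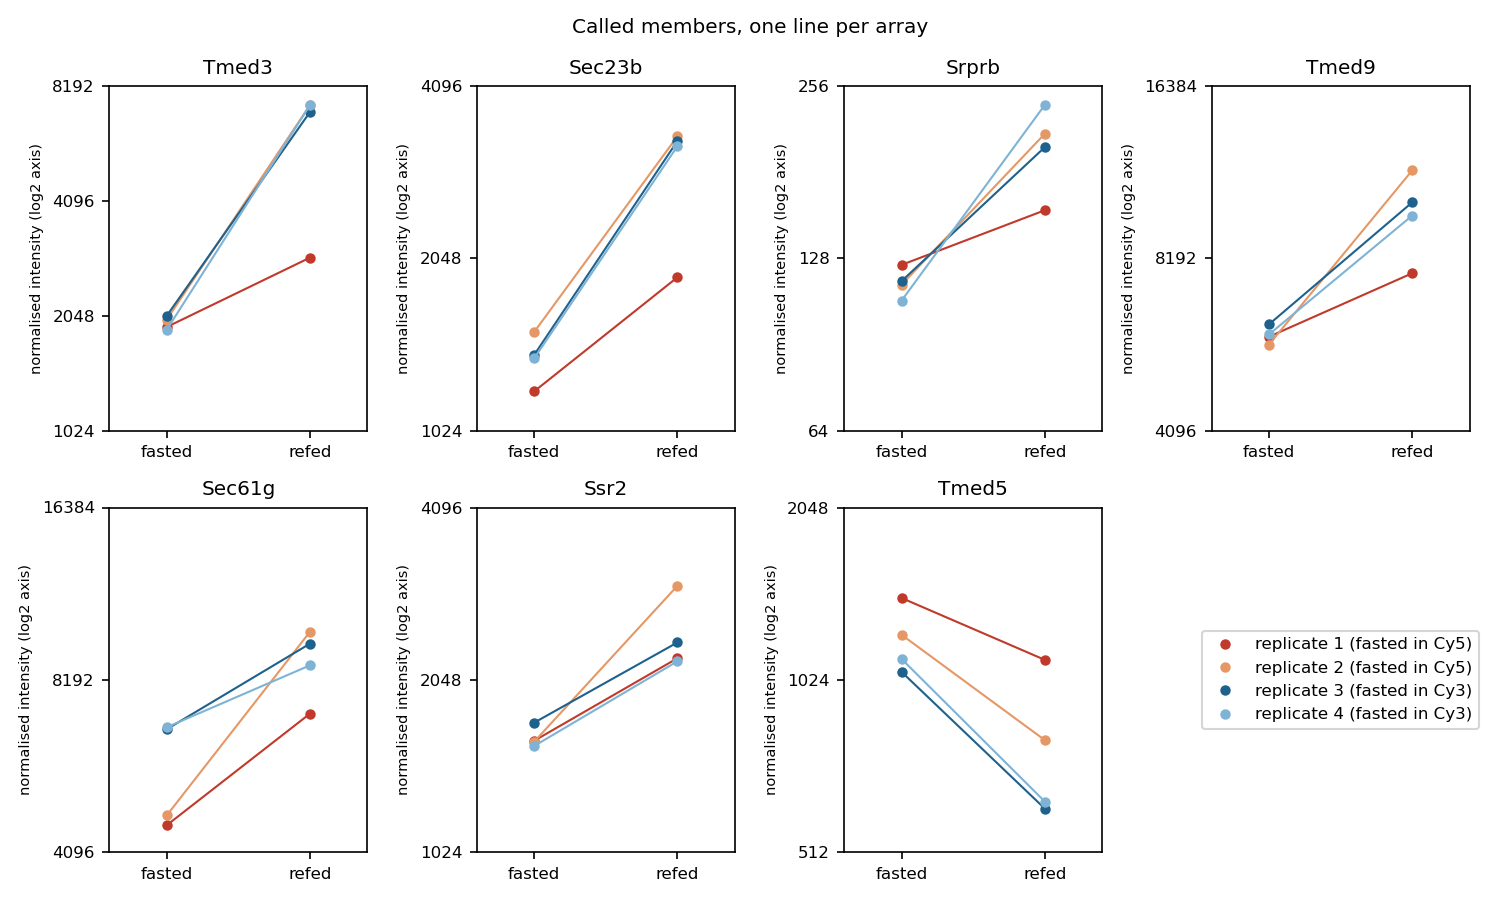
Normalised intensity (vertical axis, log2 scale, a separate range in each panel) in the fasted and refed liver of each array for the 7 called members, with lines joining the livers of 1 array. The refed liver of replicate 1 in dark red is the lowest of the refed livers for Tmed3, Sec23b, Srprb, Tmed9 and Sec61g, and the lines of Tmed5 run downwards to refed liver.

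Of the 6 measured receptors that carry or retrieve cargo, Lman1, Lman2 and Kdelr2 were lower at the adjusted p (6.28% of all genes) by amounts under the fold, while Lman2l, Lman1l and Kdelr1 did not pass it. Of the first 3, only Lman1 still passed without replicate 2 or 3. Lman1, also called ERGIC-53, which ferries clotting factors out of the ER, read -0.55, -0.56, -0.39 and -0.40 on replicates 1 to 4. These 4 values lay close together, with a mean of -0.47 ± 0.10 (SD, n = 4, adjusted p = 0.022 in limma). Lman2, the vesicular lectin VIP36, read -0.34 (adjusted p = 0.065 in limma), with a dimmer probe at -0.30 that did not pass. Lman2l read -0.43 with a wide spread, at -0.80 over replicates 1 and 2 and -0.07 over replicates 3 and 4, and Lman1l read 0.05. Of the KDEL receptors, which return escaped chaperones to the ER, Kdelr2 read -0.39 ± 0.07 (SD, n = 4, adjusted p = 0.034 in limma) with every fasted liver below every refed liver, and Kdelr1 read -0.12. Sec22b, a SNARE of ER to Golgi transport, read -0.51 (adjusted p = 0.072 in limma), while Sec22c read 0.25 (adjusted p = 0.25 in limma), from 0.03 to 0.61 over the background settings.

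Because paralogs can stand in for each other, their log2 ratios were compared within each array for 14 pairs in which both genes were measured. In 8 pairs the difference had the same sign on all 4 arrays. An exact two-sided sign-flip test over 4 arrays can give no p below 2 of its 16 flips, which each of these 8 pairs reached (0.219 after Benjamini-Hochberg adjustment over 14 pairs), so no pair could pass 0.05. Sec23a exceeded Sec23b by 0.63, 1.54, 1.26 and 1.27 on replicates 1 to 4, a mean of 1.17 with a normal-theory 95% interval of 0.56 to 1.79. Tmed5 exceeded Tmed7 by 0.72, but the Tmed7 probe was well above background in only 2 of 4 fasted livers, so this difference is less certain. Copg lay below Copg2 by a difference of -0.37 (-0.69 to -0.04) and Lman1 below Lman1l by a difference of -0.52 (-0.90 to -0.14). The Copg and Lman1l probes were dim, at 118 and 119 in fasted liver 1, against 443 for Copg2 and 6146 for Lman1. A second probe of Copg and of Lman1l was not well above background in any liver, so the sizes of both differences are less certain. The remaining pairs with one sign were Tmed4 over Tmed9, Kdelr1 over Kdelr2, Sec24a over Sec24d, and Sec61a1 below Sec61a2, and their intervals included 0. The dimmer Sec24a probe at -0.32 lay close to Sec24d at -0.33. For Sec24c against Sec24d the mean difference was -0.02 with an interval of -0.57 to 0.53, which leaves room for a difference in either direction.

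**Figure D4:**
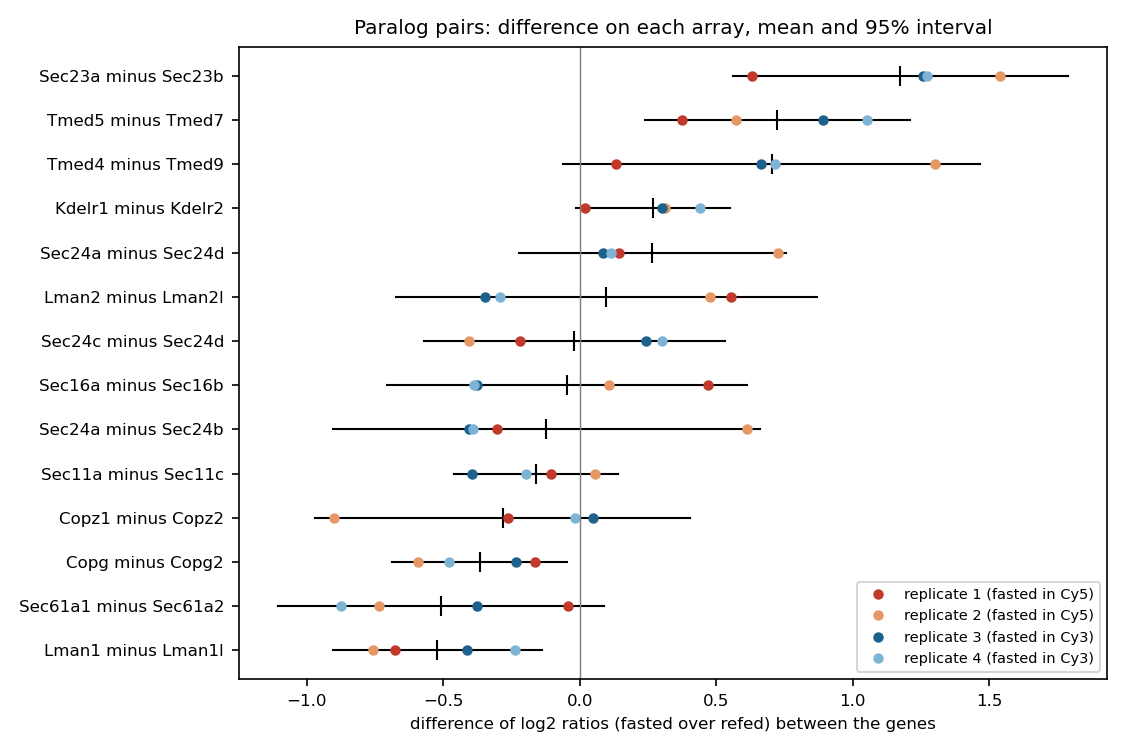
Difference between the log2 ratios (fasted over refed liver) of paralogous genes on each of 4 arrays (points, coloured by replicate), with the mean as a tick and the normal-theory 95% interval as a line, for 14 pairs. All points lie on one side of 0 in 8 pairs, and the largest mean difference is 1.17 for Sec23a minus Sec23b. Tmed7 was near background in 2 of 4 fasted livers.

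Promoters of the members were searched for motifs of the unfolded protein response and of CREB, the transcription factor this study was built around. RefSeq promoters (GRCm38.p6, 250 bases before to 50 after a transcript start) were found for 56 of the 68 genes. The unfolded protein response element core TGACGTGG, which the factors XBP1 and ATF6 can bind, was present on either strand in 6 of the 56 genes (10.7%), against 0.714% of 27025 genes with a promoter in the table. The sites are shown with 10 bases on each side, read along the motif and with the motif in capitals, because they are the sites behind this count.
Copb1: agtccttggcTGACGTGGaagggggcgg
Copb2: gccaacccacTGACGTGGaacttccggg
Sec16b: tctgtgtggcTGACGTGGcacggcagtt
Sec23a: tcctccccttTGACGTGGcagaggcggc
Sec24d: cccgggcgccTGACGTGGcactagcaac
Kdelr3: ggccgcgcggTGACGTGGcggggcggcc
In order of these lines, the windows are chr7:114254691-114254718 on the plus strand, chr9:98563714-98563741 on the minus strand, chr1:157506742-157506769 on the plus strand, chr12:59011994-59012021 on the minus strand, chr3:123267460-123267487 on the plus strand and chr15:79516368-79516395 on the minus strand. The motif began 28, 7, 44, 26 and 30 bases before the start of Copb1, Copb2, Sec16b, Sec24d and Kdelr3, and at base 7 of the transcript of Sec23a. The 5 measured genes of this group read 0.02, 0.00, 0.03, 0.11 and -0.33 for Copb1, Copb2, Sec16b, Sec23a and Sec24d, and Kdelr3 was not measurable. Of the 6 genes called lower, 5 had a promoter in the table, and 0 of these held an exact match to any of the motifs searched.

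The ER stress response element (CCAAT, 9 bases, CCACG) and its second form (ATTGG, 1 base, CCACG) were found in 0 of the 56 genes, and in 0.137% and 0.0444% of all genes. The full cyclic AMP response element TGACGTCA, which shares TGACGT with the motif above, was found only in the promoter of Cope among the 56, 210 bases before its start, against 2.03% of all genes. A match is a description of the letters in this window and not of binding. The promoters of the Sec23 pair, whose ratios differed most, are printed from RefSeq (GRCm38.p6), with the TGACGTGG motif in capitals in Sec23a. Its window is chr12:59011968-59012267 on the minus strand. The window of the upstream Sec23b start is chr2:144555979-144556278 on the plus strand and has no motif in capitals.
Sec23a: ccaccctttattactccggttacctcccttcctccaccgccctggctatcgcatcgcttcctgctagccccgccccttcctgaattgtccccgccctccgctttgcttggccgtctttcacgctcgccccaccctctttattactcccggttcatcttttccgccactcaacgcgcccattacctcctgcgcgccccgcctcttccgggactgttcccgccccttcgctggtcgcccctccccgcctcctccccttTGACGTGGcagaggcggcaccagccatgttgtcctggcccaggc
Sec23b: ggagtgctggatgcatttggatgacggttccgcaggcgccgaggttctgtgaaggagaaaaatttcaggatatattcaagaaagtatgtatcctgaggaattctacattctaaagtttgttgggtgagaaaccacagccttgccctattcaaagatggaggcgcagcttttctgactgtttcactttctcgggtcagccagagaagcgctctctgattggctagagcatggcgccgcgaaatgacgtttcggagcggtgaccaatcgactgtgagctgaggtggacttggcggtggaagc

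Genes that act at the same steps but carry other names were examined as a separate list of 80, of which 79 were measured. Their mean log2 ratio was negative in 62, their median was -0.09, and 3 (3.80%) were called lower and 0 higher by limma and by SAM, against 2.14% and 1.82% of all genes in limma. At an unadjusted p under 0.05, 25 were lower and 1 was higher, against 11.7% and 10.3% of all genes. In 14 of them all fasted livers lay below all refed livers (7.77% of all genes), and in 1, Mia3, a factor of collagen export at ER exit sites, all lay above them (mean 0.25, 6.03% of all genes). Without replicate 3 the median was -0.12 and 1 gene was called, Stx18, while Arfgap3, Arfgap1 and Tfg lost their calls (adjusted p = 0.184, 0.102 and 0.218 in limma) at means of -1.06, -0.55 and -0.62, of which that of Arfgap1 was under the fold. All of these also lost their calls without replicate 2, and Arfgap3 and Tfg without replicate 4. The 3 genes called over all arrays act on the small GTPases or exit sites that set up the coats. Arfgap3, an activator of the GTPase cycle of ARF in the COPI coat, read -0.11, -1.62, -1.12 and -1.45 on replicates 1 to 4, a mean of -1.07 ± 0.68 (SD, n = 4, adjusted p = 0.058 in limma). Replicate 1 was close to 0 while the other arrays were not. Arfgap1 read -0.59 (adjusted p = 0.020 in limma), and Tfg, a factor of ER exit sites, read -0.71 (adjusted p = 0.063 in limma). A dimmer probe of Arfgap3 read -0.22 and of Arfgap1 -0.02, neither called. The Golgi SNARE Stx5a and the ER SNARE Stx18 read -0.58 and -0.57 and passed the adjusted p (0.023 and 0.035 in limma) but not the fold. By function, the median was -0.24 for ARF and its regulators, -0.14 for SNAREs and tethers, -0.14 for cargo receptors and export factors, -0.09 for COPII start and exit sites, -0.06 for translocon partners, -0.03 for the ER membrane complex and -0.07 for the tail-anchor insertion factors.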

How the data were processed

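RNA of 4 fasted and 4 refed livers (200 ng each) was amplified, labelled and hybridised by the authors to 4 two-colour Agilent arrays. The deposited scanner files give raw median intensity and local background intensity per spot, and the deposited table gives log2 ratios that the authors normalized by loess, with its background step not given in the sources used here. Median signals of 44397 spots per array were processed with limma 3.58.1 in R 4.3.3. Spots with a local background over 3 times the array median were left out (55 in all), followed by normexp with an offset of 50, loess within arrays, removal of flagged spots, averaging of spots per probe and turning by dye. Control spots were left out.

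Probes were used if the software placed 1 condition or both well above background throughout the 4 arrays, which left 19721 of 39429 probes, 87 of them of members. Median gene spots read 40 to 75 in red and 44 to 96 in green, over backgrounds of 25 to 35 and 20 to 33, and no spot was saturated. Differences were tested with lmFit and eBayes, two-sided, and p-values were adjusted over these probes by Benjamini-Hochberg. A gene was represented by its brightest probe. Normalised intensities of single livers are channel values after loess and scaling of average intensity between arrays (Aquantile). The livers came from separate mice, and the number of arrays limits the precision.

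Named were the called members, members whose probes differed in call, and the members with the largest mean ratios up to 30, and the 5 largest of the other pathway genes. Members and lists were chosen with earlier results of these data known. On simulated arrays with 19721 probes, limma recovered 62% of changes of 1 and 97% of changes of 1.5 on the log2 scale, with 5.36% false calls and median estimates of 0.825 and 1.14, so sizes are compressed. The simulated errors were independent between arrays. The real arrays were correlated by dye orientation, at r = 0.664 and 0.752 over all probes within an orientation and 0.223 to 0.396 between orientations. The recovery and false call rates may therefore not hold for these data. Alternatives covered background correction, source of values, normalization, filters, flags, dye, test, threshold, probe choice and each replicate left out.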

Additional observations from a re-analysis of the deposited data

Results flagged for a closer look

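Of 49 sets of 4 array values checked, 5 held a value far from the other three by Dixon's 95% limit, which chance passes in about 5% of sets. Tmed3 read -0.60 on replicate 1 and -1.96 to -1.77 on the others. Lman2 read -0.15 on replicate 1 and -0.41 to -0.38 on the others. Ssr2 read -0.90 on replicate 2 and -0.49 to -0.47 on the others, and Sec24c read -0.61 on replicate 2 and -0.27 to -0.25 on the others. The median of the acinar markers was -4.42 on replicate 3 and -0.07 to 0.01 on the others.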

How the results depend on the processing

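The member median stayed negative in all 21 alternatives. With the background fitted on all spots it was -0.14, with 0 members called lower and 0 higher and 15 and 5 of all genes called. With median centring in place of loess it was -0.35 (all genes -0.06), with 14 members called lower and 0 higher, 540 of all genes called lower, and 73.1% of all calls lower against 54% with loess. With no fold limit 19 members were called lower, with 1011 of all genes lower and 798 higher, and with a 2-fold limit 2 were called lower and 0 higher, with 116 and 86 of all genes. Plain subtraction called 575 of all genes lower and 457 higher, and Agilent's processed signals 705 and 566. Leaving out each replicate gave 3 to 9 members called lower and 0 to 1 higher, and 213 to 431 and 183 to 353 of all genes. Tmed3 and Sec23b lost their calls only with the background fitted on all spots. Spcs2 turned to 0.0022 without replicate 2, and ranged down to -0.52 without replicate 4. Separate channels with no block for the array called 6 members lower and 1 higher (2.07% and 1.76% of all genes). The same called counts came from SAM (2.27% and 2.02% of all genes) and from a dye term (2.30% and 2.08% of all genes). Replicates 1 and 2 alone and replicates 3 and 4 alone, chosen after seeing the data, gave member medians of -0.18 and -0.26, with 46 and 48 of 60 negative, and replicates 1 and 3 alone and replicates 2 and 4 alone, also chosen after seeing the data, gave -0.20 and -0.27. The order of livers without replicate 3 was also added after seeing the data. Members lower at the adjusted p with no fold limit numbered 4 to 20 as each replicate was left out, and 0 with the background fitted on all spots. They numbered 32 with a dye term (13.9% of all genes lower) and 27 with median centring (8.33% of all genes lower). The other pathway genes were run under the same settings after seeing the data, with 0 called lower with the background fitted on all spots, 6 with plain subtraction, 10 with median centring, 15 with no fold limit, 1 with a 2-fold limit, 2 with separate channels or the mean of probes, and 0 to 8 as each replicate was left out. The cause of these shifts was not tested.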
